A study of Homo sapiens with 6 samples.

Results

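The 32 genes described here are targets of the tumour suppressor p53, chosen by name for their place in the pathway, with earlier results of these data known. They are 32 of the 52401 genes in the authors' deposited table of group means, and each was found there by its symbol. RNA was measured in 6 libraries of MCF10A, an immortalised, non-tumorigenic human breast epithelial line. A line carrying Flotillin1-HA together with Flotillin2-mCherry gave 3 libraries (flotillin libraries), and a line carrying mCherry alone gave the other 3 (control libraries). The flotillin line was made with a retroviral vector pair under puromycin and hygromycin, while the control line was made with 1 vector under puromycin, per the labels' protocols. Both lines grew in the same medium with horse serum, insulin, EGF, hydrocortisone and cholera toxin. Each group is a single stable line, so raised flotillins, the number of vectors and hygromycin cannot be told apart. The comparison asks how transcripts of these cells differ when both flotillins are raised.

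p53 is a transcription factor that is kept low by the ubiquitin ligase MDM2 and accumulates when DNA damage or other stress blocks that degradation. It binds pairs of short half-sites near its target genes and raises transcripts that halt the cell cycle, repair DNA, supply nucleotides, limit oxidative stress or start cell death. Several targets, MDM2 among them, act back on p53 and restrain it. MCF10A cells are known to have lost the CDKN2A locus, whose ARF product inhibits MDM2. Flotillins assemble as scaffolds at membrane microdomains and on endocytic vesicles.

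Sequences are shown for 4 genes in which the promoter window held the p53 half-site consensus, so that the motif can be read beside the expression values: RPS27L and AEN, which rose, FAS, which fell, and DDB2, which did not pass the test and had a pair of half-sites. They come from RefSeq (GRCh38.p14), and capitals mark the half-site, which has 10 bases. The stretches are chr15:63157502-63157561 on the minus strand for RPS27L, chr15:88621281-88621340 on the plus strand for AEN, chr10:88991284-88991343 on the plus strand for FAS and chr11:47214954-47215003 on the plus strand for DDB2.
RPS27L: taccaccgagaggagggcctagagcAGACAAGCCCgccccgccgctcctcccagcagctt
AEN: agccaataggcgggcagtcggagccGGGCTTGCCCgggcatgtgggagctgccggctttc
FAS: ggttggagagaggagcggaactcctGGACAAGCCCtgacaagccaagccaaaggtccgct
DDB2: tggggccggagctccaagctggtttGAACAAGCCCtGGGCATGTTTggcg

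The half-site began 59 bases upstream of a transcription start in RPS27L, 34 bases upstream in AEN and 122 bases upstream in FAS. Each distance is to the RefSeq start of the window that held the match, and a gene can have several starts. In DDB2 the first of the pair began at base 6 of the transcript. The consensus reads the same on both strands, so a match counts for both. It was searched in windows from 250 bases before to 50 bases after each start. Of 35116 RefSeq windows, 2329 (6.63%) held at least 1 match. Of the 32 genes, 25 had a window, and 8 of their 39 windows (20.5%) held a match, in PLK2, SESN1, FAS, DDB2, EI24, RPS27L, AEN and FDXR. The 8 genes were 2 of the 7 with a window that rose, 1 of the 3 that fell and 5 of the 15 that did not pass the test. A match is a description of these letters and not a binding site.

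Across the 32 genes, 9 rose and 4 fell in flotillin libraries at an adjusted p under 0.05 per the authors' deposited table. Risers were 28.1% of the 32 genes, against 11.6% of the 19733 genes tested. Fallers were 12.5%, against 12% (2363 of the 19733), which is close to the background. Of the 32 genes 31, all but BBC3, had a mean of at least 100 normalized counts over both groups. At that level the risers were 29.0% of the 31 genes, against 16.3% of the 11463 genes tested, and the fallers 12.9%, against 13.8%. The counts by role below are set against all genes tested, a lower background than the one at this level. The median log2 fold change of the 32 genes was 0.15 in the authors' deposited table, against -0.04 over all genes tested and 0.11 over those at a mean of at least 100. All 3 flotillin libraries lay above all 3 control libraries in 10 of the 32 genes (31.25%, against 24.1% of 15839 genes). They lay below them in 4 (12.5%, against 21.0% of 15839 genes). The groups did not overlap in any of the 13 genes that passed the test. Those genes were called from the same 6 libraries, so the lack of overlap adds no separate support. In bulk RNA, fewer cells of a type and less RNA per cell cannot be told apart.

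**Figure D1:**
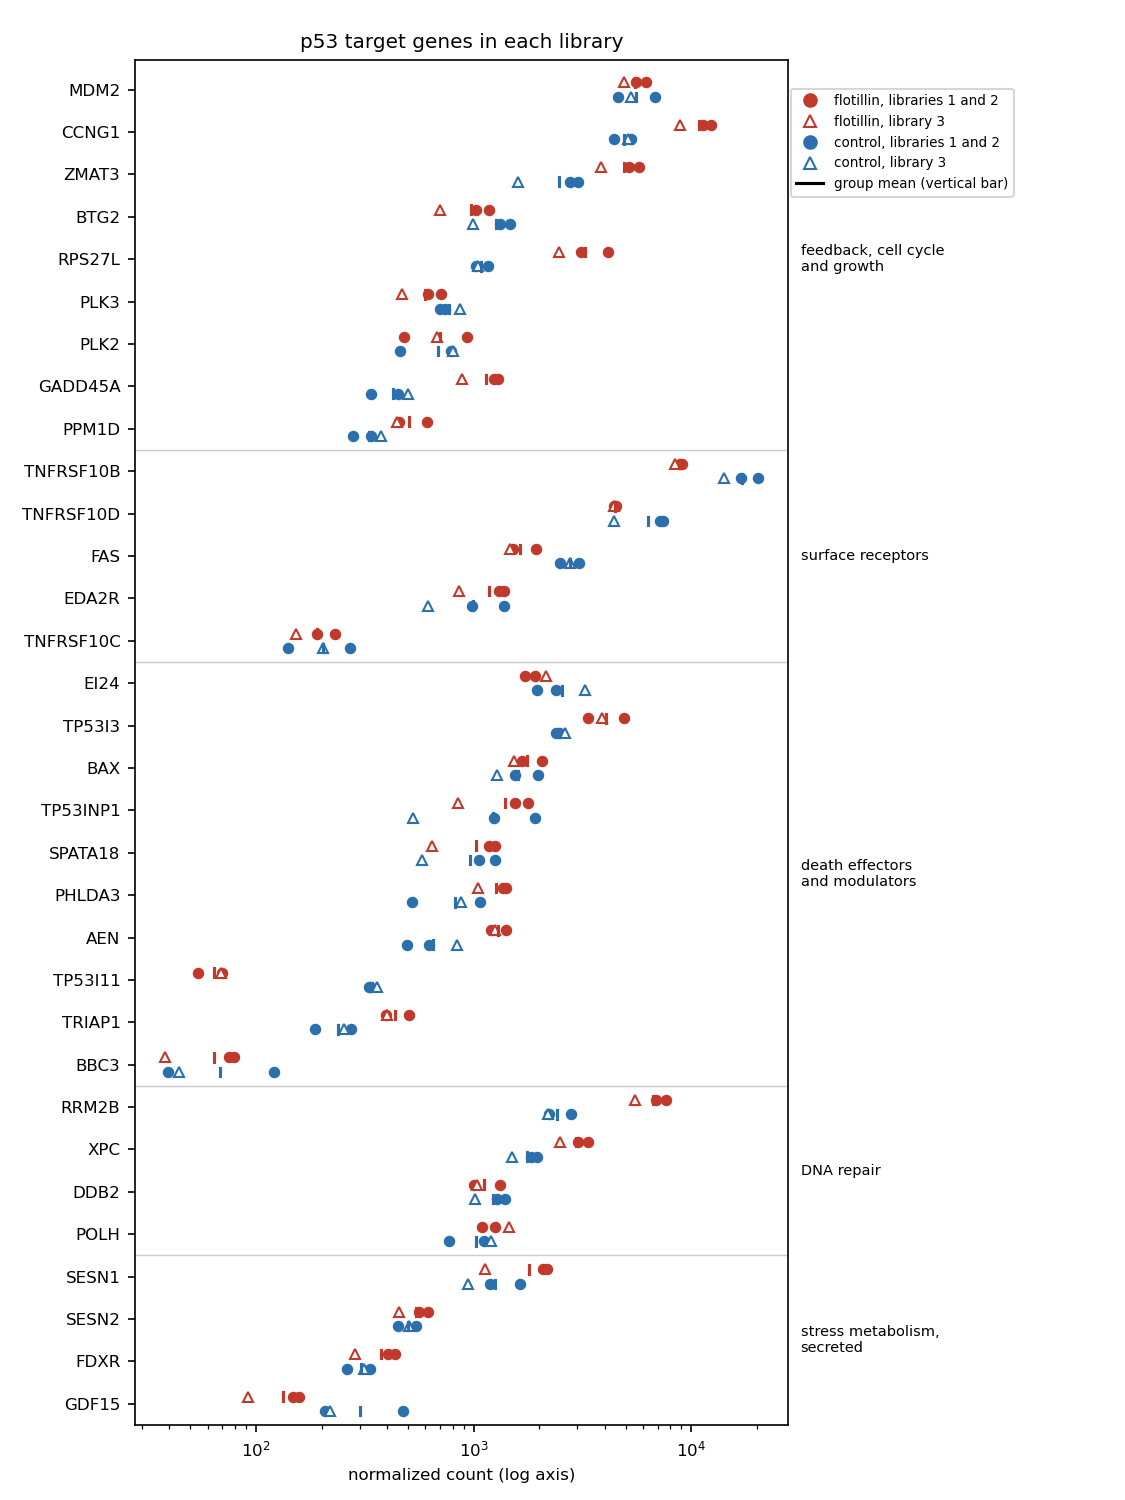
Normalized read count (log axis) of each of the 32 p53 target genes in every library, grouped by role: flotillin in red, above control in blue. Filled circles are libraries 1 and 2, open triangles library 3, and vertical bars the group mean. RPS27L, RRM2B, CCNG1 and TP53I11 show groups well apart, whereas MDM2, BAX and BBC3 overlap, and many triangles sit at the low end of their group.

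The introduced genes checked the labels. FLOT1 had 17243, 14137 and 18932 normalized counts in flotillin libraries, against 1898, 1359 and 1166 in control libraries, and FLOT2 had means of 41052 in flotillin and 3727 in control libraries in the authors' deposited table. The basal keratin gene KRT5 had means of 67351 and 48381 and EGFR of 16584 and 27098 in flotillin and control libraries in the authors' deposited table. There KRT5 did not pass the test (adjusted p = 0.24) and EGFR was lower in flotillin libraries (adjusted p = 0.0462), with a q of 0.0572 in the authors' Tuxedo table. EPCAM (80.98 in flotillin and 4607 in control libraries) and KRT17 (693 and 13306) were far lower in flotillin libraries. The keratin gene KRT14 (259 and 1249) was also lower (adjusted p = 0.00704 in the authors' deposited table), though its libraries overlapped between the groups. KRT8 (3494 and 2043) did not pass the test there (adjusted p = 0.259), but was higher in flotillin libraries in the authors' Tuxedo table (q = 0.0338). The hormone receptor gene ESR1 (6.46 and 11.2) was near 0, PGR was listed at 0 and GATA3 (335 and 274) was present in both lines. FOXA1 (41.6 and 158) was lower in flotillin libraries (adjusted p = 0.00729 in the authors' deposited table), but limma did not call it (adjusted p = 0.084). Its control libraries 1 to 3 had 101, 58.3 and 314 normalized counts. Of the immune and endothelial markers in the table all but CD68 (1309 and 753) had means of at most 2.59. The row named KRT18 is a pseudogene and was not used. The recovered libraries hold between 17912505 and 19411046 counts. Library 3 of both groups stands apart in 30 cell cycle genes, which summed to 4.13 times the mean of libraries 1 and 2 in the flotillin group and 4.59 times in the control group. Results are therefore also given from a limma fit with library 3 of both groups left out. The labels do not state that a group's samples are separate cultures, so the p-values measure a spread that may be technical.

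Genes of feedback on p53 and of cell cycle checkpoints held 4 rises among 9 members, against 11.6% of all genes tested. RPS27L encodes a ribosomal protein paralog that acts on the MDM2 and p53 pathway. It lies on chromosome 15 (63445539 to 63450220 in GRCh37). It had 3121, 4164 and 2467 normalized counts in flotillin libraries 1 to 3, against 1028, 1168 and 1046 in control libraries 1 to 3. Even the lowest flotillin library lay above every control library. RPS27L rose 3.01-fold, with a log2 fold change of 1.53 and an adjusted p of 3.01e-07 per the authors' deposited table. A separate limma fit of the 6 libraries gave 1.56 ± 0.22 (log2, SE) with an adjusted p of 0.0042. Its paralog RPS27 is similar in sequence, and how the counting split such reads is not known. RPS27L overlaps LACTB on the opposite strand, at means of 481 in flotillin and 326 in control libraries, whose part was not tested.

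CCNG1, the gene of cyclin G1, which restrains p53 through MDM2, is on chromosome 5 (162864575 to 162873157). It had 11304, 12351 and 8928 normalized counts in flotillin libraries, against 4406, 5260 and 5099 in control libraries, with no overlap. The group means were 10861 ± 1754 and 4922 ± 454 in flotillin and control libraries (SD, n = 3 each). The rise was 2.21-fold, with a log2 fold change of 1.11 and an adjusted p of 3.51e-05 per the authors' deposited table and an adjusted p of 0.0085 in limma. GADD45A encodes a stress sensor that inhibits the CDK1 and cyclin B complex and binds PCNA, and lies on chromosome 1 (68150744 to 68154021). It had 1235, 1299 and 880 normalized counts in flotillin libraries, against 449, 337 and 499 in control libraries. Library 3 was the lowest flotillin library and the highest control library, and the groups stayed apart. The rise was 2.66-fold (log2 fold change 1.36, adjusted p = 2.06e-05 in the authors' deposited table; limma adjusted p = 0.0082).

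ZMAT3, the gene of a zinc finger protein that binds RNA and controls splicing and stability of transcripts, is on chromosome 3 (178735011 to 178790067). It had 5182, 5727 and 3847 normalized counts in flotillin libraries, against 2787, 3008 and 1595 in control libraries. Library 3 was the lowest of its group on both sides. ZMAT3 rose 2.00-fold, with a log2 fold change of 0.95 and an adjusted p of 0.0144 per the authors' deposited table and 0.037 in limma, whereas the q of their Tuxedo table was 0.21. RPS27L and GADD45A kept their call whichever library was left out of the limma fit. CCNG1 kept it except without flotillin library 1 (adjusted p = 0.0513). ZMAT3 kept it without control library 3 (adjusted p = 0.0281) or flotillin library 3 (0.0433). It lost it without control library 1 (0.0692), control library 2 (0.0608), flotillin library 1 (0.116) or flotillin library 2 (0.131).

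MDM2 encodes the main ubiquitin ligase of p53 and lies on chromosome 12 (69201956 to 69239214). It had 5551, 6178 and 4903 normalized counts in flotillin libraries, against 4595, 6847 and 5273 in control libraries. The flotillin values lay inside the range of the control values. The log2 fold change was -0.0070 with an adjusted p of 0.987 per the authors' deposited table, and limma gave 0.0065 ± 0.21 (log2, SE). PPM1D, the gene of the phosphatase WIP1, which also restrains p53, averaged 504 ± 92.2 normalized counts in flotillin and 331 ± 47.5 in control libraries (SD, n = 3 each). Its groups did not overlap, but its log2 fold change of 0.59 had an adjusted p of 0.0834 per the authors' deposited table and 0.087 in limma, and 0.024 in limma with library 3 of both groups left out.

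The stress kinase genes PLK2 and PLK3 and the antiproliferative gene BTG2 overlapped between the groups. PLK2 averaged 698 ± 231 normalized counts in flotillin and 685 ± 195 in control libraries, and PLK3 598 ± 118 and 769 ± 89.2 (SD, n = 3 each). BTG2 averaged 969 ± 240 in flotillin and 1262 ± 246 in control libraries (SD, n = 3 each). Their adjusted p-values in the authors' deposited table were 0.967, 0.329 and 0.38 for PLK2, PLK3 and BTG2.

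Among 5 surface receptor genes of cell death 2 fell and 0 rose (against 12% and 11.6% of all genes tested), with a median log2 fold change of -0.49, against -0.04 over all genes tested, in the authors' deposited table. TNFRSF10B encodes DR5, a receptor for the death ligand TRAIL, and lies on chromosome 8. It had 8920, 9074 and 8420 normalized counts in flotillin libraries, against 16980, 20238 and 14199 in control libraries. The flotillin libraries lay within a narrow band and far under every control library. The means were 8805 ± 342 and 17139 ± 3023 in flotillin and control libraries (SD, n = 3 each). TNFRSF10B was 1.95-fold lower, with a log2 fold change of -0.94 and an adjusted p of 0.000544 per the authors' deposited table, 0.015 in limma and a q of 0.0422 in their Tuxedo table.

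FAS, the gene of the receptor for FAS ligand, is on chromosome 10. It had 1524, 1935 and 1465 normalized counts in flotillin libraries, against 2504, 3053 and 2774 in control libraries. Again every flotillin library lay under every control library. The fall was 1.69-fold, with a log2 fold change of -0.74 and an adjusted p of 0.00941 per the authors' deposited table and 0.023 in limma. The q of their Tuxedo table was 0.246. TNFRSF10B lost its limma call without control library 2 (adjusted p = 0.0506), flotillin library 1 (0.0715) or flotillin library 2 (0.0611). FAS lost it without control library 2 (0.0751), flotillin library 1 (0.104) or flotillin library 3 (0.0715). FAS overlaps ACTA2 on the opposite strand, whose means were 1045 in flotillin and 412 in control libraries, and TNFRSF10B overlaps RHOBTB2, at 956 and 2297. The sources used here do not state whether the counting used strand, and the part of these neighbours in either result was not tested.

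The TRAIL decoy genes and EDA2R did not pass the test. TNFRSF10D, whose product has a truncated death domain, had 4432, 4506 and 4397 normalized counts in flotillin libraries, against 7189, 7380 and 4425 in control libraries. Only control library 3 came near the flotillin libraries, and it lay inside their range. The log2 fold change was -0.49 (adjusted p = 0.173 in the authors' deposited table), and limma with library 3 of both groups left out gave -0.70 with an adjusted p of 0.0081. TNFRSF10C, whose product lacks an intracellular domain, averaged 192 ± 38.4 in flotillin and 204 ± 64.9 in control libraries, and EDA2R, the gene of the ectodysplasin A2 receptor, 1180 ± 284 and 991 ± 379 (normalized counts, SD, n = 3 each). TNFRSF10B, TNFRSF10C and TNFRSF10D are neighbouring genes of common descent, so reads from shared stretches may be assigned to any of them or to none. Summed over the 5 receptor genes, flotillin libraries held 16483, 17018 and 15289 normalized counts and control libraries 27930, 32183 and 22214, most of them from TNFRSF10B.

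Death effectors and survival factors held 3 rises and 1 fall among 10 members, against 11.6% and 12% of all genes tested. AEN encodes a nuclease that acts in the nucleus during apoptosis and lies on chromosome 15 (89164527 to 89175513). It had 1207, 1406 and 1252 normalized counts in flotillin libraries, against 492, 624 and 837 in control libraries. The highest control library was library 3, still under every flotillin library. AEN rose 1.98-fold, with a log2 fold change of 0.95 and an adjusted p of 0.00398 per the authors' deposited table, 0.02 in limma and a q of 0.0101 in their Tuxedo table.

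TP53I3 encodes PIG3, an oxidoreductase linked to reactive oxygen production, and lies on chromosome 2. It had 3364, 4915 and 3909 normalized counts in flotillin libraries, against 2465, 2401 and 2630 in control libraries. The control libraries were close together and the flotillin libraries spread, without overlap. The rise was 1.63-fold, with an adjusted p of 0.0213 per the authors' deposited table and 0.037 in limma, and a q of 0.138 in their Tuxedo table. TP53I3 overlaps FAM228B on the opposite strand, at means of 459 in flotillin and 375 in control libraries, whose part was not tested. TRIAP1 encodes a lipid transfer partner in mitochondria that protects cells from apoptosis and lies on chromosome 12 (120882359 to 120884175). It had 396, 507 and 398 normalized counts in flotillin libraries, against 186, 274 and 253 in control libraries. It rose 1.83-fold (adjusted p = 0.0118 in the authors' deposited table, 0.035 in limma), and no control library reached a flotillin library. TRIAP1 overlaps AL021546.1 on the opposite strand, at means of 76.2 in flotillin and 47.4 in control libraries, whose part was not tested.

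TP53I11, the gene of PIG11, a membrane protein linked to apoptosis, had the largest difference among the 32 genes in the authors' deposited table and lies on chromosome 11. It had 54.0, 69.9 and 68.9 normalized counts in flotillin libraries, against 330, 336 and 359 in control libraries. The fall was 5.32-fold, with a log2 fold change of -2.33 and an adjusted p of 2.53e-17 per the authors' deposited table and 0.00098 in limma. On the opposite strand it overlaps TSPAN18, whose means were 4.38 in flotillin and 466 in control libraries, so that the neighbour moved the same way; its part in the fall of TP53I11 was not tested. TP53I11 kept its limma call whichever library was left out. AEN lost its call without control library 1 (adjusted p = 0.0549), control library 2 (0.064), flotillin library 1 (0.0719) or flotillin library 2 (0.0854). TP53I3 and TRIAP1 kept theirs only without control library 3 (0.0263 and 0.0247). Without any of the other 5 libraries the adjusted p ran between 0.0761 and 0.132 for TP53I3 and between 0.0585 and 0.137 for TRIAP1.

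The pore former BAX and the BH3-only gene BBC3, the best known mitochondrial arms of the p53 response, overlapped between the groups. BAX had 1666, 2057 and 1532 normalized counts in flotillin libraries, against 1549, 1977 and 1280 in control libraries. BBC3, the gene of PUMA, had 75.0, 79.0 and 38.0 in flotillin libraries, against 121, 39.2 and 44.4 in control libraries. Their log2 fold changes were 0.12 (adjusted p = 0.774) and -0.08 (adjusted p = 0.919) in the authors' deposited table. Limma gave 0.14 ± 0.21 for BAX and 0.03 ± 0.50 for BBC3 (log2, SE), and for BBC3 a change of the size seen in AEN lies within about 2 standard errors.

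Of the remaining effectors, PHLDA3, which encodes an inhibitor of AKT, averaged 1274 ± 197 normalized counts in flotillin and 821 ± 278 in control libraries (SD, n = 3 each), with an adjusted p of 0.154 per the authors' deposited table. EI24, the gene of an endoplasmic reticulum protein linked to autophagy, averaged 1928 ± 212 and 2537 ± 657 in flotillin and control libraries. SPATA18, which encodes a mitochondrial quality control protein, averaged 1026 ± 332 and 962 ± 347. TP53INP1, the gene of a stress and autophagy protein, averaged 1398 ± 488 and 1228 ± 693. None of the 3 passed the test (adjusted p of 0.31, 0.89 and 0.814 in the authors' deposited table), and in SPATA18 and TP53INP1 the spread within each group was larger than the difference between them.

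**Figure D2:**
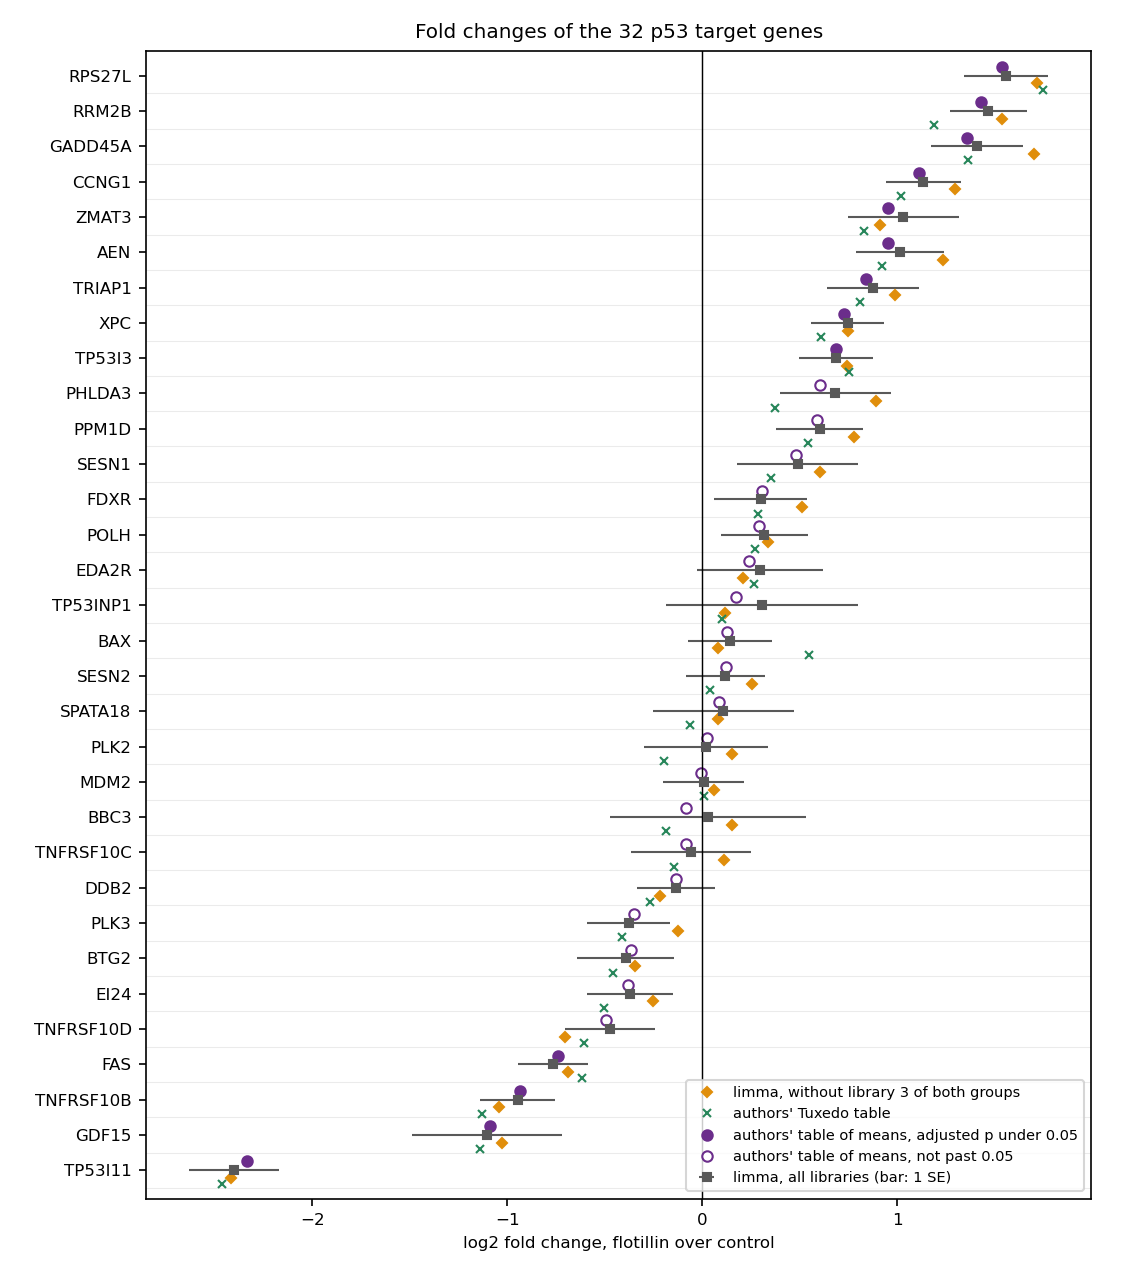
Log2 fold change of flotillin over control for the 32 p53 target genes, ordered by the authors' deposited table of means (circles, filled where the adjusted p is under 0.05). Squares with bars of 1 SE are limma, diamonds the same fit with library 3 of both groups left out, and crosses the authors' Tuxedo table. Filled circles run from RPS27L (1.53) to TP53I3 (0.68) on the right and from FAS (-0.74) to TP53I11 (-2.33) on the left.

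Among 4 genes of DNA repair and nucleotide supply, 2 rose, against 11.6% of all genes tested. RRM2B encodes the p53-inducible small subunit of ribonucleotide reductase and lies on chromosome 8 (103216730 to 103251346). It had 6855, 7646 and 5498 normalized counts in flotillin libraries, against 2231, 2796 and 2194 in control libraries. The lowest flotillin library was far above the highest control library. RRM2B rose 2.77-fold, with a log2 fold change of 1.43 and an adjusted p of 1.45e-07 per the authors' deposited table and 0.0037 in limma. In their Tuxedo table, whose group values are per length, it stood at 342 FPKM in flotillin and 150 in control libraries with a q of 0.0844.

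XPC encodes the protein that detects distorted DNA in nucleotide excision repair and lies on chromosome 3. It had 3020, 3349 and 2501 normalized counts in flotillin libraries, against 1963, 1831 and 1496 in control libraries. The groups did not overlap, and library 3 was the lowest of each. The rise was 1.68-fold, with an adjusted p of 0.0147 per the authors' deposited table and 0.029 in limma, but the q of their Tuxedo table was 0.338. XPC overlaps LSM3 on the other strand, at means of 890 in flotillin and 547 in control libraries, whose part was not tested. RRM2B kept its limma call whichever library was left out. XPC lost its call without control library 1 (adjusted p = 0.056), control library 2 (0.0737), flotillin library 1 (0.111) or flotillin library 2 (0.116). DDB2, the partner of XPC in damage recognition, averaged 1121 ± 176 in flotillin and 1233 ± 195 in control libraries, and POLH, the translesion polymerase eta gene, 1265 ± 184 and 1027 ± 228 (normalized counts, SD, n = 3 each). Neither passed the test, at adjusted p-values of 0.74 and 0.461 in the authors' deposited table.

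Genes of stress metabolism and secreted factors held 1 fall among 4 members, against 12% of all genes tested. GDF15, the gene of a secreted stress cytokine of the TGF-beta family, is on chromosome 19. It had 158, 148 and 91.5 normalized counts in flotillin libraries, against 472, 208 and 219 in control libraries. Control library 1 was more than double either other control library, and the groups did not overlap. The fall was 2.26-fold, with a log2 fold change of -1.09 and an adjusted p of 0.0259 per the authors' deposited table. Limma did not call it (adjusted p = 0.072, and 0.056 with library 3 of both groups left out), nor did the Tuxedo table (q = 0.503), whereas limma with a term for library 3 did (log2 fold change -1.10, adjusted p = 0.0122). With 1 library left out, limma called it only without control library 3 (0.0453), and the other adjusted p-values ran up to 0.187.

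The sestrins SESN1 and SESN2, which restrain mTORC1 signalling under stress, differed in their spread. SESN1 had 2077, 2165 and 1130 normalized counts in flotillin libraries, against 1194, 1636 and 942 in control libraries. Flotillin library 3 lay below every other flotillin library and below both control libraries 1 and 2. Its log2 fold change of 0.48 had an adjusted p of 0.303 per the authors' deposited table, and limma with library 3 of both groups left out gave 0.60 with an adjusted p of 0.032. SESN2 averaged 545 ± 83.9 in flotillin and 500 ± 49.3 in control libraries, and FDXR, the gene of the mitochondrial ferredoxin reductase, 376 ± 79.8 and 302 ± 37.1 (normalized counts, SD, n = 3 each). Their adjusted p-values were 0.757 and 0.442 in the authors' deposited table.

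Over all 19 genes that did not pass the test, the authors' log2 fold changes in their deposited table ran from -0.49 to 0.60, and the groups overlapped in 18, the exception being PPM1D. Leaving out 1 library at a time, limma called between 3 risers, without flotillin library 1, and 10 risers, without control library 3. Without control library 1, control library 2 or flotillin library 2 it called 4. It called between 1 faller, without control library 2 or flotillin library 1, and 5 fallers, without control library 3, and 2 without flotillin library 2 or flotillin library 3. The shares over all genes in these fits were not worked out, so these counts cannot be set against a background. Of the 13 calls in the authors' deposited table, 12 were shared by limma in the same direction, 12 by limma with library 3 of both groups left out and 7 by the authors' Tuxedo table. All of these rest on the same 6 libraries or a part of them, so the shared calls add no separate support. Limma called 9 risers and 3 fallers in all 6 libraries (28.1% and 9.38% of the 32 genes, against 12.1% and 11.1% of 15839 genes). With a term for library 3 it called 11 and 5 (the background being 24.5% and 21.4%), among them PPM1D (adjusted p = 0.0358), SESN1 (0.0387), TNFRSF10D (0.0464) and GDF15. With library 3 of both groups left out it called 11 risers and 4 fallers (34.4% and 12.5% of the 32 genes, against 23.6% and 20.5% of 15839 genes). The Tuxedo table called 5 risers and 2 fallers (15.6% and 6.25%, against 6.94% and 10.0% of 16996 genes).

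Compared per length, as FPKM in the authors' deposited Tuxedo table, the order of the genes differed between the lines. In flotillin libraries the highest were RRM2B at 342, RPS27L at 290.5, CCNG1 at 286, BAX at 218 and TNFRSF10B at 154 FPKM. In control libraries they were TNFRSF10B at 337, RRM2B at 150.1, BAX at 149, CCNG1 at 141 and EI24 at 110 FPKM. TNFRSF10B thus ranked 5 in flotillin and 1 in control libraries, and RPS27L 2 and 6. MDM2 stood at 61.9 FPKM in flotillin and 61.5 in control libraries. The lowest were TP53I11 at 0.755 and BBC3 at 2.02 FPKM in flotillin libraries, and BBC3 at 2.30 and TP53I11 at 4.16 in control libraries. These are the authors' group values, with no spread, so neighbours in the order cannot be told apart by replicate error.

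The p53 target genes also varied with the library. In the flotillin group 29 of the 32 genes were below the mean of libraries 1 and 2 in library 3, and in the control group 18. These 18 were lower in both groups, and 3 genes (EI24, POLH and TP53I11) were higher in both. The median log2 of library 3 over the mean of libraries 1 and 2 was -0.39 in the flotillin group, against 0.003 over 15839 genes. In the control group it was -0.04, against 0.03, which is near the background. Library 3 was the lowest library of both groups in 11 genes (34.4% of the 32 genes, against 24.6% of 15839 genes) and the highest of both in 2, EI24 and POLH (6.25%, against 28.0%). TP53INP1 had 1557, 1787 and 850 normalized counts in flotillin libraries, against 1241, 1914 and 528 in control libraries. SPATA18 had 1173, 1260 and 647 in flotillin libraries, against 1061, 1248 and 577 in control libraries. Both genes thus differed more between library 3 and its companions than between the lines. The 30 cell cycle genes, by contrast, were highest in library 3 of both groups without exception, and the part of that difference in the p53 target values was not tested.

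**Figure D3:**
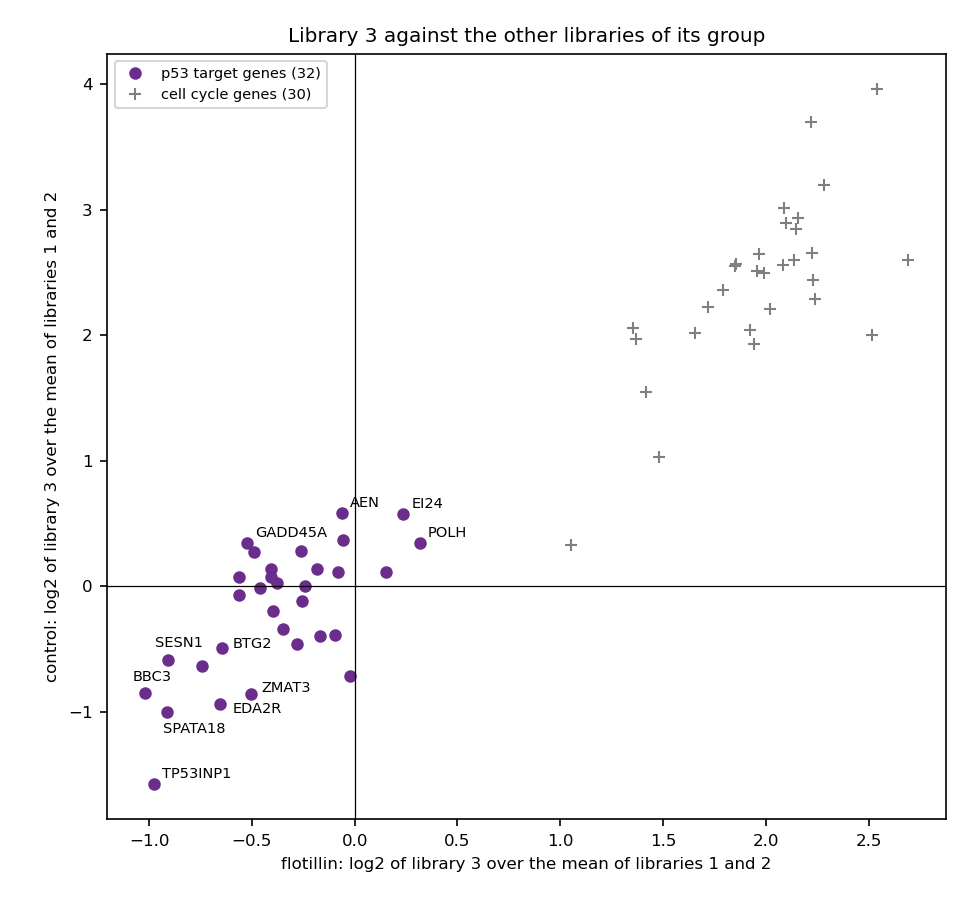
Log2 of library 3 over the mean of libraries 1 and 2, in the flotillin group (x axis) and the control group (y axis), for the 32 p53 target genes (circles) and 30 cell cycle genes (crosses). Every cross lies in the upper right, and 18 of the 32 circles lie in the lower left, TP53INP1 lowest.

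Of 40 further p53 targets, 6 rose and 14 fell in the authors' deposited table, with a median log2 fold change of -0.38. These are 15% and 35% of the 40 genes, against 11.6% and 12% of all genes tested, and the difference from the 32 genes was not tested. Among genes tested at a mean of at least 100 the shares were 16.3% and 13.8%, so the share of rises is near the background. Limma called 5 higher and 11 lower of the 38 it could fit, against 12.1% and 11.1% of 15839 genes. CDKN1A, the gene of the CDK inhibitor p21 and the classical p53 target, had 7335, 8740 and 5973 normalized counts in flotillin libraries, against 2598, 1855 and 3188 in control libraries. Every flotillin library lay above every control library. It rose 2.89-fold, with an adjusted p of 8.55e-06 per the authors' deposited table and 0.007 in limma, and kept its limma call whichever library was left out.

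The other largest rises were those of BTG1, an antiproliferative relative of BTG2, ABHD4, which encodes a lipid hydrolase, and the gene listed as C16orf5 (CDIP1), which encodes a proapoptotic protein. Their log2 fold changes were 1.38, 1.06 and 0.98 in the authors' deposited table, with adjusted p-values of 0.00638, 0.0011 and 0.000674. ABHD4 had a q of 0.0682 in their Tuxedo table. BTG1 had 6037, 7593 and 2609 normalized counts in flotillin libraries, against 2716, 1823 and 1188 in control libraries, and flotillin library 3 lay inside the control range. Limma gave BTG1 an adjusted p of 0.055, and 0.00076 with library 3 of both groups left out. The 4 largest falls were CD82, a tetraspanin gene, PERP, which encodes a desmosomal and proapoptotic membrane protein, TGFA, the gene of an EGFR ligand, and GLS2, the mitochondrial glutaminase gene. Their log2 fold changes were -3.81, -2.40, -2.10 and -2.08 in the authors' deposited table, with adjusted p-values of 4.77e-30, 1.02e-20, 2.10e-09 and 1.61e-05. CD82 had 213, 237 and 147 normalized counts in flotillin libraries, against 4148, 2182 and 3286 in control libraries, so the lowest control library lay far above every flotillin library. Another TRAIL receptor gene, TNFRSF10A, fell by 1.48 on the log2 scale in the authors' deposited table, beside the fall of TNFRSF10B.

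Among 23 regulators and paralogs of p53, 22 of them tested, 3 rose and 5 fell in the authors' deposited table (13.6% and 22.7% of the 22, against 11.6% and 12% of all genes tested), so the share of rises is near the background. CDKN2A was near 0 in both lines, with means of 2.03 normalized counts in flotillin and 0.645 in control libraries. MDM4, the partner of MDM2 that blocks p53, had 1234, 1219 and 840 normalized counts in flotillin libraries, against 3021, 3862 and 1475 in control libraries. It fell 2.54-fold (adjusted p = 0.00442 in the authors' deposited table, 0.042 in limma, and a q of 0.0781 in their Tuxedo table). With 1 library left out, limma kept that call only without control library 3 (0.00286), and the other adjusted p-values ran from 0.0974 to 0.128.

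The paralogs of p53, which bind similar sites, were both lower. TP63, the p63 gene of basal epithelia, had 30.0, 36.5 and 10.3 normalized counts in flotillin libraries, against 2053, 1964 and 1278 in control libraries. It fell 69.0-fold by the ratio of group means (log2 fold change -5.63, adjusted p = 3.66e-44 in the authors' deposited table). TP63 kept its limma call whichever library was left out. TP73 had 18.0, 29.4 and 40.1 in flotillin libraries, against 279, 252 and 27.6 in control libraries. Control library 3 lay inside the flotillin range. The log2 fold change of TP73 was -2.19 (adjusted p = 0.00126 in the authors' deposited table), while limma gave an adjusted p of 0.11, and 0.00205 without control library 3, and the q of their Tuxedo table was 0.184. HIPK2, the gene of a kinase that phosphorylates p53, had 23698, 14365 and 18534 normalized counts in flotillin libraries, against 5086, 4952 and 3610 in control libraries, and rose 4.15-fold (adjusted p = 1.18e-10 in the authors' deposited table). SIRT1, a p53 deacetylase gene, and PML, the gene of the nuclear body scaffold, rose by log2 fold changes of 0.67 and 0.64, and the p53 inhibitor gene PPP1R13L (iASPP) fell by 1.09 on the log2 scale in the authors' deposited table. Their adjusted p-values there were 0.0191, 0.0234 and 0.00549, and the q of the authors' Tuxedo table was 0.584, 0.113 and 0.0646 for SIRT1, PML and PPP1R13L. With 1 library left out, limma kept the call of SIRT1 in 1 of 6 fits (adjusted p up to 0.117), of PML in 2 (up to 0.128) and of PPP1R13L in 1 (up to 0.0976). PPP1R13B also fell, by 0.72 on the log2 scale (adjusted p = 0.00738 in the authors' deposited table, 0.027 in limma). Its q in the authors' Tuxedo table was 0.0378, and limma kept its call in 2 of these 6 fits (up to 0.112).

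Cell cycle genes, many of which are repressed downstream of p21, did not pass the test. The authors' deposited table called 0 of the 29 tested, with 0 at an unadjusted p under 0.05. Limma called 0 of 30, with 0 at an unadjusted p under 0.05, and none passed in the Tuxedo table. Their summed level was 37903, 34582 and 149628 normalized counts in flotillin libraries 1 to 3, against 19143, 38107 and 131487 in control libraries 1 to 3. Library 3 of each group thus lay far above its companions, and the groups overlapped. Without library 3 of both groups limma called 17 higher and 1 lower (56.7% and 3.33% of the 30 genes, against 23.6% and 20.5% of 15839 genes in that fit, and 12.1% and 11.1% with all 6 libraries).

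**Figure D4:**
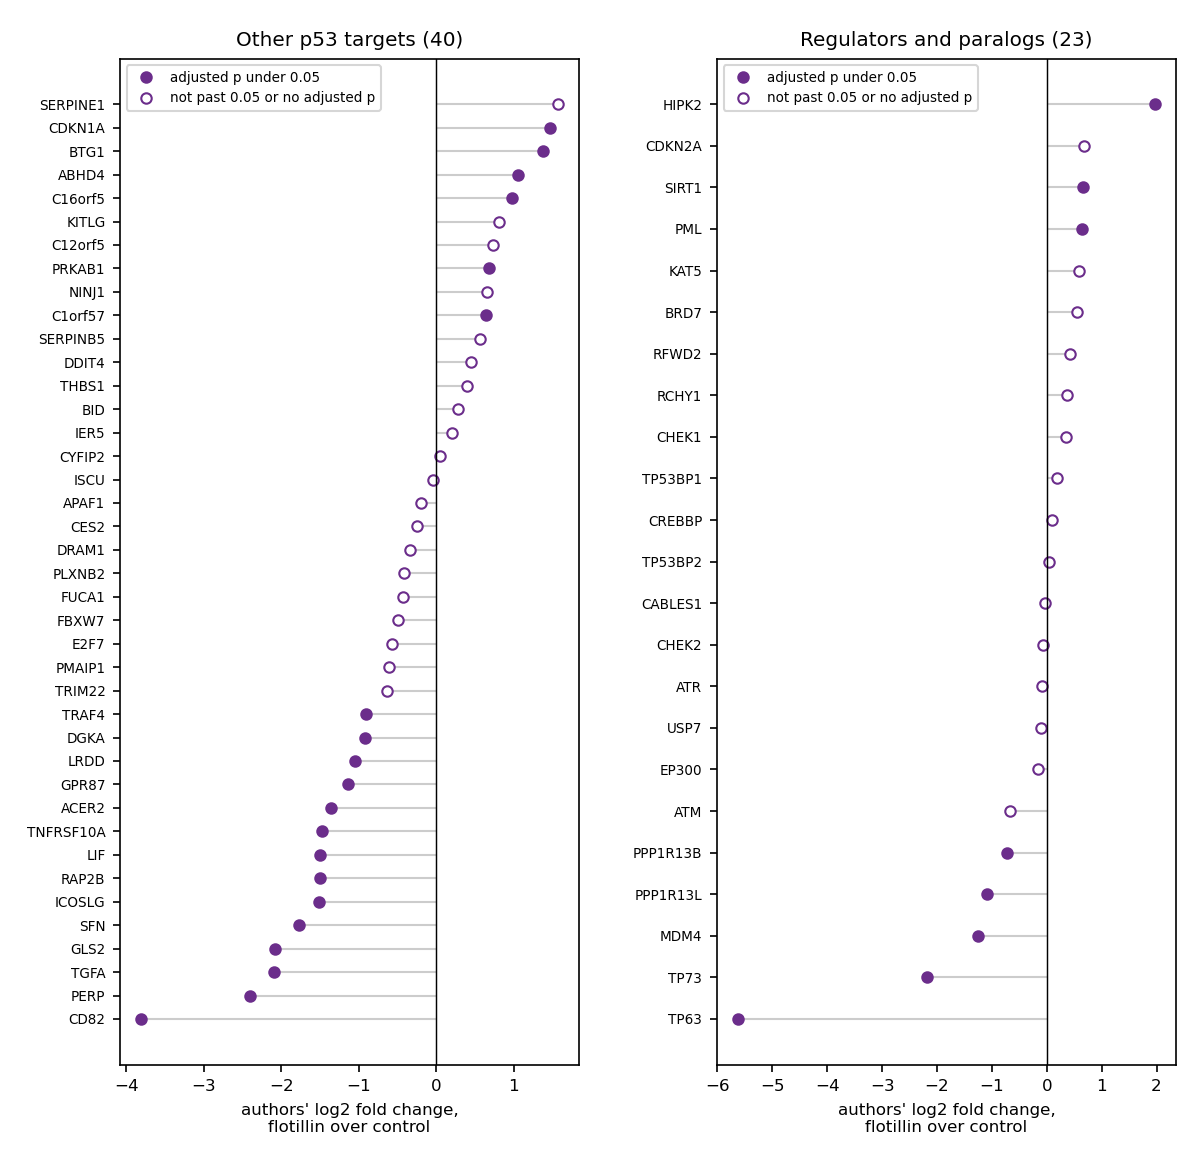
Log2 fold change of flotillin over control in the authors' deposited table for 40 further p53 targets (left) and 23 regulators and paralogs of p53 (right). Filled circles have an adjusted p under 0.05 and open circles do not, or have none. The filled circles on the left number 6 above 0 and 14 below 0, with CD82 lowest, and TP63 is lowest on the right.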

How the data were processed

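Per the labels' protocols, a stranded mRNA kit was used and libraries were read on a HiSeq instrument. The submitters' processing notes name bcl2fastq, HISAT2 2.1.0, HTSeq 0.9.1, DESeq2 1.18.1 and build GRCh37. The first of 2 deposited tables holds a signal, the authors' mean normalized count of each group, with the authors' log2 fold change, p-value and adjusted p-value, per the file headers. In the second, named for the Tuxedo pipeline, the authors give group values in FPKM, with log2 fold changes, a test score (not used) and q-values, per the file headers. Its loci (GRCh37, counted from 1) join neighbouring genes for 9 members, for which only the chromosome is given.

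The means carry 15 significant digits, so the 3 whole numbers behind each could be recovered, for 99.5% of flotillin and 99.6% of control means above 0; altered means had a solution in 0.1% and 0.2% of 1000 tries. Means above 20000 were not searched, and 172 genes, with 25.2% of flotillin and 26.8% of control normalized counts, have no recovered libraries. Libraries are numbered 1 to 3 within a group by falling size factor and carry no replicate number from the labels. The recovered whole numbers skip and repeat values in a regular pattern (in control library 1, 2560 genes at 1, 25 at 2 and 1280 at 3), as counts multiplied by a factor and rounded would. The best matching factors run from 0.8645 in flotillin library 3 to 1.3595 in control library 1, which puts unscaled totals at 22003003 and 13994070. The correlation with the pattern was 0.966 and 0.907 in control libraries 1 and 2 and between 0.610 and 0.808 in the other libraries, whose factors are less sure. The recovered numbers are therefore not taken as raw reads, and no count model was fitted.

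Genes that rose or fell have an adjusted p under 0.05 in the authors' table of means. Fold values are ratios of the group means there, and the authors' log2 fold changes, a separate estimate, need not match them. A second fit used limma 3.58.1 (R 4.3.3; trend, robust, Benjamini-Hochberg adjustment) on log2(normalized count + 1) for 15839 genes with a mean of at least 10. It was tested on simulated data. Tables and figures used Python 3.11.15, numpy 2.4.6, pandas 2.3.3, numba 0.67.0 and matplotlib 3.10.9. Overlaps of genes come from GENCODE 29. Values by library are given for each member past the threshold and for MDM2, BBC3 and BAX. Of the other lists the 4 largest called changes each way are named, with CDKN1A, MDM4, CDKN2A, TP63 and TP73, some by fold change alone. TNFRSF10D, SESN1, TP53INP1 and SPATA18 were given by library, and TNFRSF10A and PPP1R13B were named, after their values were seen. Another gene of the regulators is not reported here. Members and lists were chosen with earlier results of these data known.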

Additional observations from a re-analysis of the deposited data

How the results depend on the processing

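No paired analysis was possible because the deposited columns are group means without replicate numbers. The Tuxedo table called 5 members higher and 2 lower, and 1 regulator higher and 2 lower. Leaving out library 3 of both groups, limma called 10 of 38 other p53 targets higher and 14 lower, and 6 of 22 regulators higher and 6 lower. It called 17 of 30 cell cycle genes higher and 1 lower. In that fit 23.6% and 20.5% of 15839 genes were called higher and lower. With 1 library left out, limma called 3 to 10 members higher, 1 to 5 lower and 4 to 15 in all (6 without flotillin library 2). No share over all genes was worked out for these fits, so a swing of all genes cannot be told apart. Limma with no filter, with pseudocounts of 0.5 and 5, with upper quartile scaling and with a term for library 3 called 7 to 11 members higher and 3 to 5 lower, and the authors' calls at a mean of at least 100 were 9 and 4. Upper quartile scaling shifted the median of all genes by -0.05 (log2). Signs turned only in members that had not passed the test. For MDM2 the log2 fold change became 0.011 in the Tuxedo table, 0.0065 in limma and with the term, 0.062 on leaving out library 3 of both groups, and 0.0024, 0.092 and 0.17 without flotillin library 1, flotillin library 3 and control library 2. For PLK2 it was -0.19 in the Tuxedo table and -0.22 and -0.25 without flotillin library 2 and control library 1. TNFRSF10C gave 0.11 on leaving out library 3 of both groups, 0.093 without flotillin library 3 and 0.17 without control library 1. BBC3 gave 0.029 in limma and with the term, 0.15 on leaving out library 3 of both groups, and 0.36 and 0.53 without flotillin library 3 and control library 1. SPATA18 gave -0.065 in the Tuxedo table, and -0.018, -0.069 and -0.22 without flotillin library 1, flotillin library 2 and control library 3. Without control library 3, EDA2R gave -0.011, BAX -0.010 and TP53INP1 -0.21. The cause of these changes was not tested. The FPKM table gives no spread, and 3 libraries per group limit what a missed threshold can show.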
